A study of Mus musculus with 6 samples.

Results

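Eef1a1, Eef2, Eif4a1 and Eif4g2 are mouse genes for proteins that act in the elongation and initiation steps of protein synthesis. Their RNA was followed through a chromatin capture experiment in 12 of the 7959 transcript models for which reads had been counted. A transcript model is an assembled stretch of the genome with 1 or more exons. A model was included when at least 50% of its exon bases lay in the span of one of the genes, and all 12 lay wholly inside. There was 1 model in Eef1a1, 4 in Eef2, 3 in Eif4a1 and 4 in Eif4g2. Of these, 7 were spliced and 5 had a single exon, and 3 covered a small nucleolar RNA (snoRNA) gene that lies within the host gene.

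The cells were of the MEL line, which derives from mouse erythroleukemia, labelled as strain C57BL/6 and grown in roller bottles. All 6 RNA sequencing libraries came from chromatin of cells fixed with formaldehyde and were made with a stranded kit for total RNA. The input group held RNA of the chromatin before capture. The TH59-DB group held RNA of chromatin captured with TH59-DB, a probe for telomeres built as a pyrrole-imidazole polyamide, and the masked TH59-DB group held RNA captured with the masked form of that probe, the negative control. Each group had 2 libraries. The labels number only the second, so the other is called number 1 here. No label says that the libraries came from separate cultures, so p-values measure only the spread between these libraries, which may be technical.

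Library totals ran from 1803723 to 3122558 reads, of which 35.7% to 69.2% lay in the models, and 1 read was worth 0.320 to 0.554 reads per 1000000 of the library total (CPM). The largest model of masked TH59-DB 1, outside these genes, held 50.8% of its total, and the largest model of each other library held 4.41% to 20.8%. In that library 4341 models had 0 reads, against 0 to 1884 elsewhere, and the lowest count of any model in TH59-DB 1 was 5 reads. The lowest count was 0 in every other library. Values of TH59-DB over all models may thus be raised by how the models were chosen, which was not tested. Of 23 erythroid marker genes, 14 had a model, and their summed level was 1004 and 1421 CPM in the input libraries, 599 and 1291 in the masked libraries and 714 and 480 with TH59-DB. The globin genes, Alas2 and Slc4a1 had no model among those analysed. Markers of other blood cells had a model for 2 of 12 genes (Itga2b and Laptm5), at summed levels of 4.06 to 49.4 CPM, and those of other tissues for 0 of 7.

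During elongation, eEF1A, the product of Eef1a1, delivers aminoacyl-tRNAs to the ribosome, and eEF2 then moves the ribosome along the mRNA by a codon. eIF4A1 is the RNA helicase of the cap-binding complex that prepares an mRNA for the small ribosomal subunit. Eif4g2 encodes a relative of the scaffold eIF4G that lacks its site for the cap-binding protein eIF4E and serves alternative routes of initiation. These mRNAs are made in nearly all cells and are abundant in growing ones. RNA of a chromatin preparation can hold both nascent transcripts and mature mRNA.

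Because the probe is directed at telomere repeats, whose unit is TTAGGG, the sequences before the starts of the genes are shown with matches to that unit marked. The windows are the 250 bases upstream of the annotated start, 5′ to 3′ on the gene's strand, from RefSeq on GRCm38.p6. Capitals mark any rotation of the unit on either strand; the 12 words searched can overlap each other in a longer repeat. All 4 genes matched the gene table, and 3 of the 4, without Eif4g2, matched the promoter table. The window of Eef1a1 is chr9:78481725-78481974 on the minus strand, that of Eef2 chr10:81176381-81176630 on the plus strand, and that of Eif4a1 chr11:69672424-69672673 on the minus strand.
Eef1a1: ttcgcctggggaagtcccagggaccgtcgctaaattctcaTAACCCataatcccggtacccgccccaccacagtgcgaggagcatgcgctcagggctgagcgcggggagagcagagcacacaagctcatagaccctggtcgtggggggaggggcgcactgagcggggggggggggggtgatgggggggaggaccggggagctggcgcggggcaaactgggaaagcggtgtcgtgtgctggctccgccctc
Eef2: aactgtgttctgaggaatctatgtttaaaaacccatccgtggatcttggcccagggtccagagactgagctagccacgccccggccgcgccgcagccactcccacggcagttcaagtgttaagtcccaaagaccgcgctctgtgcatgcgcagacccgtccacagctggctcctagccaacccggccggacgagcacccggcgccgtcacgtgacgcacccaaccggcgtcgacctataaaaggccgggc
Eif4a1: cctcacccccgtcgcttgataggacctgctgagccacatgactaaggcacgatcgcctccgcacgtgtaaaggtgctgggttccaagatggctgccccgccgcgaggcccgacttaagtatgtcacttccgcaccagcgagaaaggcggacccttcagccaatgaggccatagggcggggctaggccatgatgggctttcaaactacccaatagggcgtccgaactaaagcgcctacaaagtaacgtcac

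The Eef1a1 window held 1 match, TAACCC, which begins 210 bases before the start, and the windows of Eef2 and Eif4a1 held none. Of all 32851 promoter windows of this length, 32.8% held at least 1 rotation, and 9.32% held TTAGGG or CCCTAA. Single copies of the unit are thus common in promoters. The windows had a GC content of 68% in Eef1a1, 62.8% in Eef2 and 58.8% in Eif4a1, above the median of 52.4% over all windows.

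Per kilobase, Eef1a1 had a higher level in every library than Eef2 and Eif4g2, the other genes with spliced models. Its single model had 7 exons and 1511 exon bases on chromosome 9, from 78478758 to 78481671 in mm10, and began 53 bases inside the annotated start of the gene (span 78478453 to 78481724). Its level was 1138 and 1788 CPM in the input libraries, 288 and 708 CPM in the masked libraries and 188 and 205 CPM with TH59-DB, from 340 to 5104 reads per library. The groups did not overlap: both input libraries lay above both masked libraries, and these above both TH59-DB libraries.

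The mean Eef1a1 level was 1463 ± 460 CPM in the input, 498 ± 297 in masked TH59-DB and 197 ± 11.5 in TH59-DB (SD, n = 2 each). The input mean was 7.44 times the TH59-DB mean and 2.94 times the masked mean. In reads per kilobase of model, Eef1a1 ranked 61 and 26 among all models in the input libraries, 193 and 109 in the masked libraries, and 391 and 307 in the TH59-DB libraries. The libraries are bulk, so fewer cells with an RNA and less RNA per cell cannot be told apart.

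Differences were tested with edgeR's quasi-likelihood test over all 5385 models with enough reads, Benjamini-Hochberg adjusted, and called at an adjusted p under 0.05. All 12 models of the translation factor genes were among those tested. Eef1a1 in TH59-DB against input had a fitted difference of -2.75 on the log2 scale (SE 0.88) with an adjusted p of 0.151 by this test. In masked TH59-DB against input it was -1.80 (SE 0.85, adjusted p = 0.739), and in TH59-DB against masked TH59-DB -0.95 (SE 0.83, adjusted p = 0.890). None of the 3 comparisons passed. The levels and SDs above are CPM of the library totals, while the fit scales these totals by TMM factors. The factors were 1.33 for TH59-DB 1 and 0.681 for TH59-DB 2, so the TH59-DB libraries lie further apart in the fit than in CPM. The lack of overlap in CPM is therefore not on the scale that was tested. DESeq2 on the same counts gave -2.38 with an adjusted p of 0.00634 in TH59-DB against input, so the call changed with the processing. With the first TH59-DB library left out, the edgeR value was -1.98, and with the second left out it was -3.71.

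**Figure D1:**
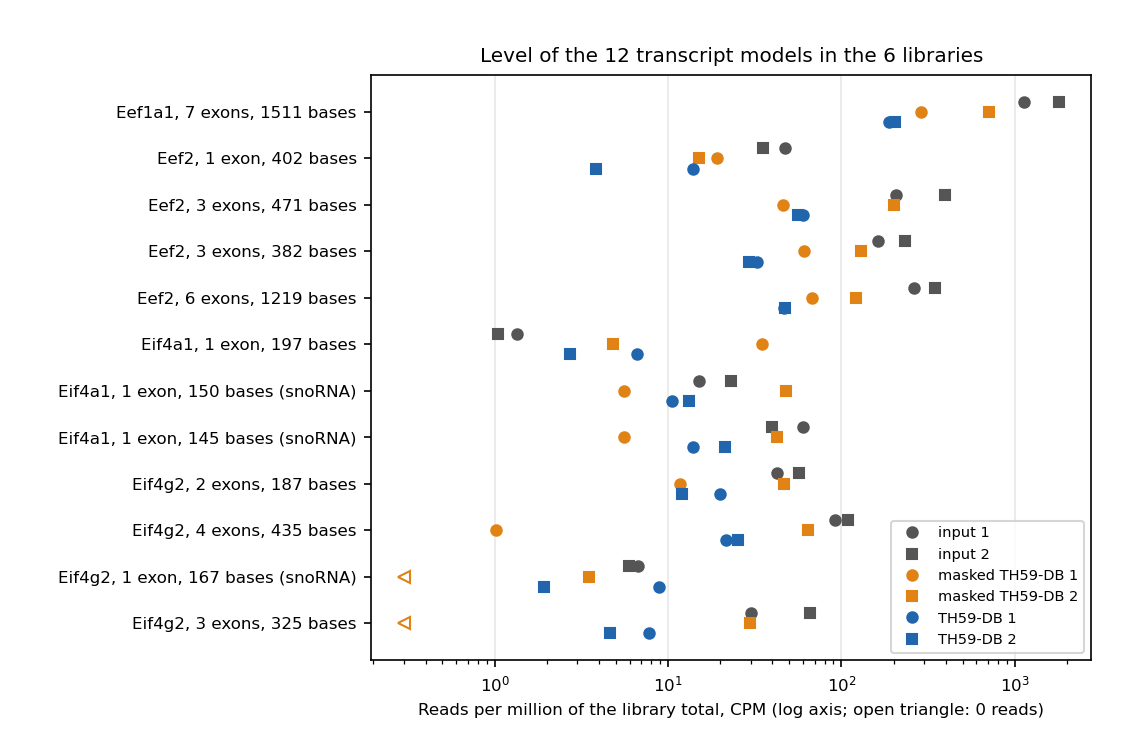
Level of each of the 12 models in each of the 6 libraries, in CPM on a log axis; colours mark the groups, marks show the library number and an open triangle stands for 0 reads. The input libraries lie to the right of both TH59-DB libraries in 10 of the 12 models, and the 197-base Eif4a1 model runs the other way.

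Eef2, the gene of the translocation factor, was covered by 4 models on chromosome 10 (span 81176631 to 81182509), in order from its start. The first was a single-exon model of 402 bases, from 81176643 to 81177044, that began 12 bases inside the annotated start. Its level was 47.6 and 35.4 CPM in the input libraries, 19.3 and 15.1 in the masked libraries and 13.9 and 3.86 with TH59-DB. It was the dimmest of the Eef2 models in every library, and its groups did not overlap.

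The 3-exon model from 81178144 to 81179248, of 471 exon bases, had the highest mean density per kilobase of the Eef2 models. Its level was 208 and 394 CPM in the input libraries, 46.2 and 202 in the masked libraries and 59.9 and 56.0 with TH59-DB. Here masked TH59-DB 1 lay below both TH59-DB libraries and masked TH59-DB 2 above them, so these groups overlapped. The snoRNA gene Snord37 lies in this stretch between exons, from 81178961 to 81179013, and no model covered it.

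The second 3-exon model, from 81179356 to 81179914 with 382 exon bases, had 163 and 233 CPM in the input libraries, 60.9 and 130 in the masked libraries and 32.7 and 29.4 with TH59-DB. The 6-exon model from 81180062 to 81181752, with 1219 exon bases, had 262 and 345 CPM in the input libraries, 68.0 and 122 in the masked libraries and 46.6 and 47.1 with TH59-DB. In both, every input library lay above every masked library and every masked library above every TH59-DB library. For these 2 Eef2 models the input means were 6.39 and 6.48 times those of TH59-DB.

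The fitted log2 fold changes of the 4 Eef2 models in TH59-DB against input lay close together, at -2.48, -2.23, -2.59 and -2.59 from the 5′ to the 3′ end. Their adjusted p-values in edgeR's quasi-likelihood test were 0.127, 0.190, 0.0684 and 0.0857. In masked TH59-DB against input the 4 values were -1.48, -1.56, -1.30 and -1.91 (adjusted p from 0.552 to 0.780 by the same test). In TH59-DB against masked TH59-DB they ran from -1.29 to -0.68 (adjusted p from 0.609 to 0.935). No Eef2 model passed in any comparison, while DESeq2 called the models at 81179356 (-2.22, adjusted p = 0.0163) and 81180062 (-2.22, adjusted p = 0.0167) lower in TH59-DB against input. The edgeR fit without TMM called the same models lower (adjusted p = 0.0428 and 0.0430), and the fit of only these groups called those at 81176643 and 81179356 (0.0397 and 0.0416). In these fits, 23 of 5385 and 61 of 4864 tested models were called lower. With the first TH59-DB library left out the 4 values ran from -2.67 to -1.54, and with the second left out from -3.49 to -2.44. The 4 models belong to 1 gene and are not replicates of each other.

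**Figure D2:**
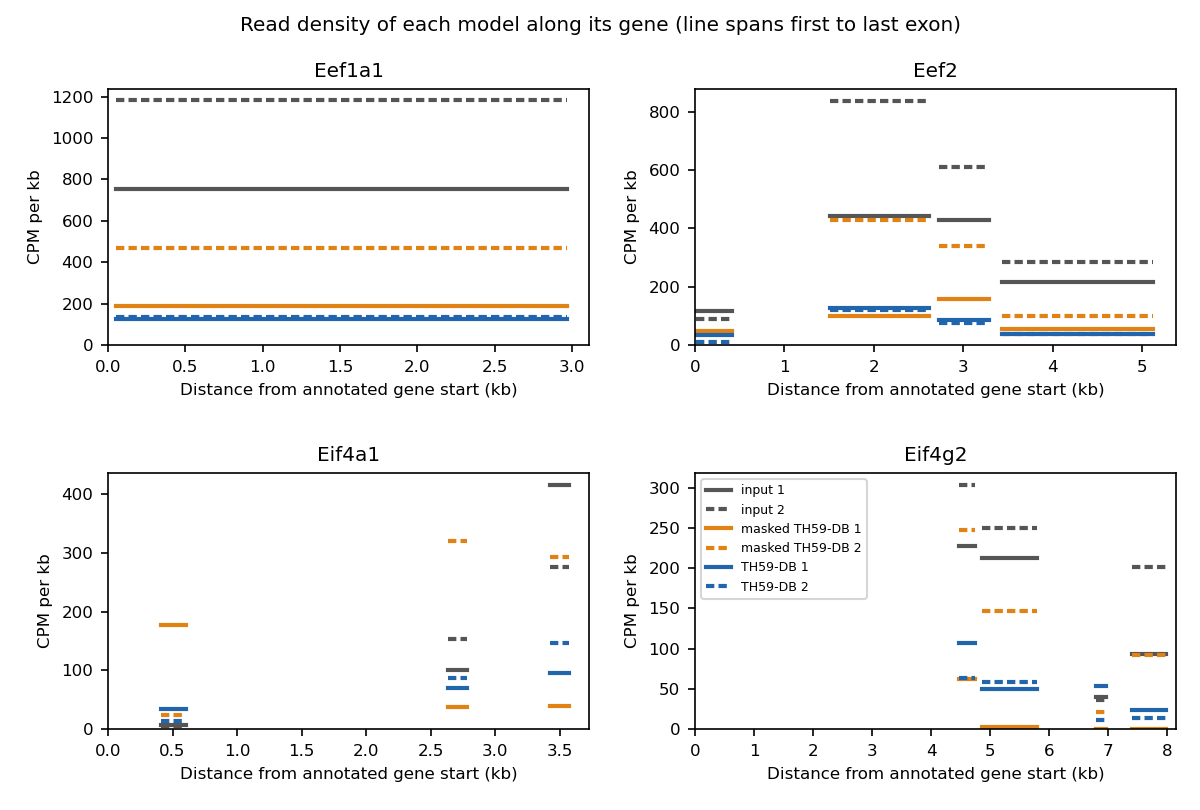
Read density of each model in CPM per kilobase, drawn as a line from its first to its last base at its distance from the annotated gene start, with 1 panel per gene. Each library has a line, in the colour of its group, solid for number 1 and dashed for number 2. Eef1a1 is covered by 1 long model, while Eef2, Eif4a1 and Eif4g2 are covered in pieces.

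Eif4g2, the gene of the eIF4G relative, had 4 models on chromosome 7 (span 111067985 to 111083030), 3 of them spliced. The 2-exon model from 111078286 to 111078554 was nearest to the start of the gene, which lies on the minus strand. Its level was 42.5 and 56.7 CPM in the input libraries, 11.7 and 46.4 in the masked libraries and 20.0 and 11.97 with TH59-DB. The input lay above TH59-DB, and the masked libraries spanned the range from below TH59-DB to within the input.

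The 4-exon model from 111077234 to 111078174, with 435 exon bases, had 92.5 and 109 CPM in the input libraries, 1.01 and 64.1 in the masked libraries and 21.6 and 25.5 with TH59-DB. The 3-exon model from 111075057 to 111075621 had 30.1 and 65.5 CPM in the input libraries, 0 and 29.8 in the masked libraries and 7.76 and 4.63 with TH59-DB. In masked TH59-DB 1 these 2 Eif4g2 models had 2 and 0 reads, which is at or under the floor of 3 reads. In masked TH59-DB 2 they had 200 and 93 reads. Summed over models that cover no snoRNA, Eif4g2 had 12.7 and 140 CPM in the masked libraries. Eef1a1 had 288 and 708 and Eef2 194 and 469, so the Eif4g2 sum differed by a far larger factor. This does not hold for the 2-exon model (11.7 and 46.4 CPM), which differed by a smaller factor than the Eef2 model at 81178144 (46.2 and 202).

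A single-exon model of 167 bases in Eif4g2, from 111076063 to 111076229, covered the snoRNA gene LOC115486847 (111076060 to 111076227). It had 6.70 and 5.95 CPM in the input libraries, 0 and 3.52 in the masked libraries and 8.87 and 1.93 with TH59-DB. These values rest on at most 20 reads per library, and the input lay between the TH59-DB libraries. The file of library number 1 writes every single-exon model on the plus strand and that of number 2 leaves the strand out, so reads of the host gene, of the snoRNA and of any antisense RNA cannot be told apart there.

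The 3 spliced Eif4g2 models had, in TH59-DB against input, log2 fold changes of -1.65, -1.97 and -2.89 from the 5′ to the 3′ end. The adjusted p-values were 0.290, 0.518 and 0.326 by edgeR's quasi-likelihood test. The SEs of 0.68, 1.12 and 1.26 were larger for the models that were at or under the floor in masked TH59-DB 1. In masked TH59-DB against input the 3 models had -1.09, -2.07 and -2.02 (adjusted p from 0.811 to 0.835). In TH59-DB against masked TH59-DB the 3 spliced models had -0.56, 0.10 and -0.87 (adjusted p from 0.949 to 0.993). The value of the 4-exon model turned to -0.81 with the first masked library left out. With the second left out it was 4.27, that of the 3-exon model 6.87 and that of the snoRNA model 6.40. In the fit with the second masked library left out, the median of all tested models was 5.10, beside 0.30 with all libraries. The comparison of the captures for Eif4g2 therefore rests on which masked library is used, and this shift is not particular to the gene.

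Eif4a1, the gene of the helicase, had 3 single-exon models on chromosome 11 (span 69666936 to 69672423) and none that was spliced. The models therefore do not follow a spliced Eif4a1 mRNA, and exons of this gene were not used here. The model from 69668852 to 69668996, of 145 bases, covered the snoRNA gene Gm25835 (69668852 to 69668995). Its level was 60.3 and 39.9 CPM in the input libraries, 5.58 and 42.6 in the masked libraries and 13.9 and 21.2 with TH59-DB. Input lay above TH59-DB, and masked TH59-DB again gave a low first and a high second library.

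The Eif4a1 model from 69669639 to 69669788, of 150 bases, covered the snoRNA gene LOC115487892 (69669635 to 69669778). It had 15.1 and 23.1 CPM in the input libraries, 5.58 and 48.0 in the masked libraries and 10.5 and 13.1 with TH59-DB. The masked libraries held both the lowest and the highest value of all 6. The third snoRNA gene of the span, LOC115487878 at 69667834 to 69667976, was covered by no model.

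The 2 snoRNA models of Eif4a1 did not keep one ratio across the libraries. The model over Gm25835 took 80.0% of their joint reads in input 1 (95% exact binomial interval 74.2% to 85.0%) and 63.3% in input 2 (55.8% to 70.4%). It took 50% in masked TH59-DB 1 (28.2% to 71.8%) and 47.0% in masked TH59-DB 2 (41.1% to 53.0%). In TH59-DB it took 56.8% (41.0% to 71.7%) and 61.8% (50.9% to 71.9%). The input shares were above both masked shares, and the TH59-DB shares lay between them. The intervals cover counting error only, and the input libraries already differed from each other by more than these intervals.

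The remaining Eif4a1 model, of 197 bases from 69671819 to 69672015, covered no snoRNA and lay 408 to 604 bases downstream of the annotated start. Its level was 1.34 and 1.05 CPM in the input libraries, 35.0 and 4.80 in the masked libraries and 6.65 and 2.70 with TH59-DB, from 4 and 3, 69 and 15, and 12 and 7 reads. This was the only model of the 12 in which both captures lay above the input. Summed over libraries, the masked level was 13.8 times the input level (95% exact interval 6.39 to 35.3, counting error only), and the TH59-DB level 3.61 times (1.45 to 10.2). Every model listed had at least 5 reads in TH59-DB 1, more than this model had in either input library. A TH59-DB level above the input may thus be favoured by which models are listed.

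In the fit, this Eif4a1 model had a log2 fold change of 4.00 (SE 1.35) in masked TH59-DB against input, with an unadjusted p of 0.0132 and an adjusted p of 0.495 by edgeR's quasi-likelihood test. Against input, TH59-DB had 1.78 (SE 1.30, adjusted p = 0.688), and against masked TH59-DB it had -2.22 (SE 1.22, adjusted p = 0.696). Masked TH59-DB 1 alone held 69 of the 110 reads of the model. With that library left out, the value of TH59-DB against masked TH59-DB turned to 0.21 and that of masked TH59-DB against input was 1.51. With the other masked library left out, masked TH59-DB 1 stood alone for its group, and these values were -3.50 and 5.24. The medians of all tested models in that fit were 5.10 and -1.53, so the values rest on 1 library that shifted widely. Of all Eif4a1 reads, this model held 1.75% and 1.64% in the input libraries, 75.8% and 5.03% in the masked libraries and 21.4% and 7.29% with TH59-DB.

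The 2 snoRNA models of Eif4a1 had log2 fold changes of -1.42 (Gm25835) and -0.52 (LOC115487892) in TH59-DB against input, with adjusted p-values of 0.570 and 0.924 by edgeR's quasi-likelihood test. The snoRNA model of Eif4g2 had -0.50 (adjusted p = 0.960). In masked TH59-DB against input the 3 models had -1.52, 0.14 and -2.19, and in TH59-DB against masked TH59-DB 0.10, -0.66 and 1.69, with adjusted p-values from 0.830 to 0.999 in edgeR. None of these 3 models passed in a comparison. The spliced models of Eef1a1, Eef2 and Eif4g2 all had lower values in TH59-DB against input, from -2.89 to -1.65. The difference between the spliced and the snoRNA models was not tested.

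**Figure D3:**
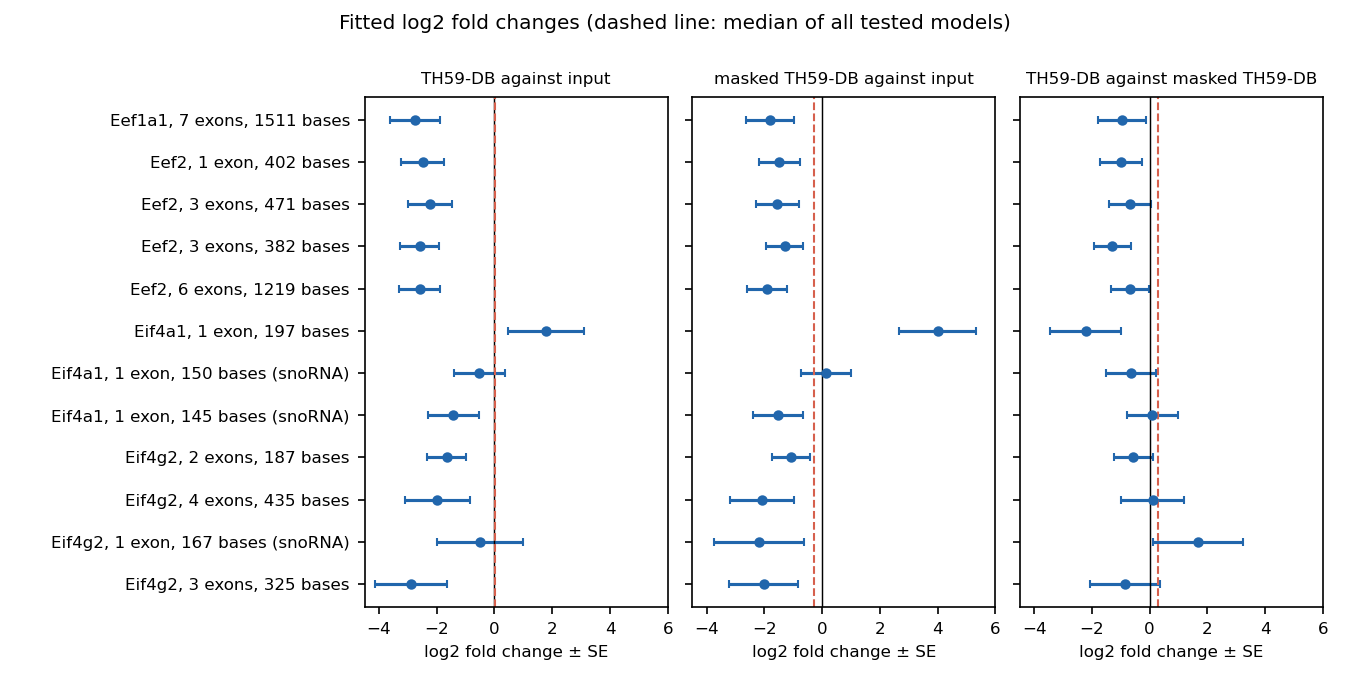
Fitted log2 fold change of each of the 12 models with its SE, in the 3 comparisons of the groups. For TH59-DB against input, 11 of the 12 values lie below 0, and the 197-base Eif4a1 model lies above it; the dashed line is the median of all tested models.

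Counted over the 12 models in TH59-DB against input, 0 passed in either direction in edgeR's quasi-likelihood test, against 3.58% of all tested models that passed as higher and 0.0371% as lower. At an unadjusted p under 0.05, 7 of the 12 were lower, the models of Eef1a1, all 4 of Eef2 and 2 of Eif4g2, and 0 were higher. Of all tested models 5.14% were lower and 8.86% higher by that rule. DESeq2 called 3 of the 12, all lower, beside 0.52% of all tested models as lower and 6.85% as higher. With either masked library left out of the fit, edgeR called 2, the Eef2 model at 81176643 and the Eif4g2 model at 111075057, both lower. In these fits 1.07% (first left out) and 0.932% (second left out) of all tested models were called lower. In CPM without TMM scaling, the 2 input and the 2 TH59-DB libraries did not overlap in 11 models, with TH59-DB lower in 10 and higher in 1. Over all tested models, 23.5% were lower and 22.5% higher without overlap.

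The median log2 fold change of the 12 models was -2.10, beside 0.03 over all tested models. With the first TH59-DB library left out it was -1.38, and with the second left out -2.87. Among all tested spliced models the median was -0.59, and for the 7 spliced ones here it was -2.59. TH59-DB lay below the input without overlap in 7 of these 7, and in 42.1% of all tested spliced models. Values were below 0 in 11 of the 12 models and 7 of the 7 spliced ones, beside 49.1% of all tested models and 71.7% of the spliced ones. The models come from only 4 genes, and most of these counts come from Eef2 and Eif4g2. Every model had at least 5 reads in TH59-DB 1, so the values over all tested models may be raised by that floor, which was not tested.

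For masked TH59-DB against input, 0 of the 12 models passed in edgeR's quasi-likelihood test, against 0.26% of all tested models as higher and 0% as lower. At an unadjusted p under 0.05, 1 was lower, the 6-exon Eef2 model, and 1 higher, the 197-base Eif4a1 model, against 2.95% and 3.86% of all. Without overlap 8 were lower and 1 higher, where 14.4% and 15.9% of all tested models were. The spliced models were lower without overlap in 6 of 7, beside 15.6% of all tested spliced models. The median was -1.54, beside -0.26 over all tested models, and 10 of the 12 values were below 0, as were 58.9% of all. All 7 spliced models had values below 0, beside 70.9% of the spliced models tested. DESeq2 called 1 of the 12, the 197-base Eif4a1 model, as higher (4.48, adjusted p = 0.0290), beside 1.88% of all as higher and 0.371% as lower. With the second masked library left out, edgeR called 4, this model as higher and as lower 3 of Eif4g2, those with 0 to 2 reads in masked TH59-DB 1. In that fit 5.69% of all tested models were called higher and 14% lower, and the median of all was -1.53. The median of the 12 was -1.03 with the first masked library left out and -1.78 with the second left out.

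For TH59-DB against masked TH59-DB, which sets the probe against its negative control, 0 of the 12 models passed in either direction in edgeR's quasi-likelihood test. Of all tested models 1.41% passed as higher and 0% as lower. No model of the 12 had an unadjusted p under 0.05, against 8.26% of all as higher and 1.69% as lower. Without overlap 4 were lower and 0 higher, where 14.7% and 16.1% of all tested models were. Of the 7 spliced models 3 were lower without overlap, beside 23.5% of all tested spliced models. The median log2 fold change was -0.68, beside 0.30 over all tested models and -0.16 over the spliced ones. It ran from -1.31 with the second TH59-DB library left out to -0.20 with the first left out, and it was 0.013 with the second masked library left out, where 6 of the 12 values were below 0 and the median of all was 5.10. Values were below 0 in 9 of the 12 models and 6 of the 7 spliced ones, beside 40.4% of all and 55.9% of all spliced. DESeq2 called 0 of the 12, beside 4.94% of all as higher and 0.0186% as lower, and edgeR with the second masked library left out called 4, the 197-base Eif4a1 model as lower and the 3 Eif4g2 models as higher. In that fit 20.6% of all tested models were called higher and 3.35% lower, so the higher count is near the background.

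The library pairs of this comparison differed. Between the libraries of number 2, TH59-DB lay below masked TH59-DB in all 12 models, and between those of number 1 in 5 of the 12. These counts use CPM without TMM scaling, and the share of all tested models was not computed for single pairs. The TMM factors were 1.34 in masked TH59-DB 2 and 0.681 in TH59-DB 2, against 0.892 and 1.33 for number 1. The counts are therefore not read as a trait of these genes. The 3 comparisons share their libraries, so they are not independent of each other. The large model that held 50.8% of masked TH59-DB 1 and the low Eif4g2 values were seen in the same single library. Eif4g2 was low there also against Eef2, which had 15.3 times its reads. A link between the large model and the low values was not tested.

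Levels of the genes were compared with each other per kilobase of exon, over the models that cover no snoRNA. In the input the mean was 968 ± 304 CPM per kilobase in Eef1a1, 341 ± 93.4 in Eef2 and 209 ± 49.0 in Eif4g2 (SD, n = 2). The masked means were 330 ± 197, 134 ± 78.6 and 80.8 ± 95.3, and those of TH59-DB 130 ± 7.58, 58.5 ± 4.77 and 48.3 ± 5.41. The order was Eef1a1, Eef2, Eif4g2 in each group. No neighbours in it overlapped in the input or in TH59-DB, while in masked TH59-DB the values of Eef2 (78.6 and 190) and Eif4g2 (13.4 and 148) overlapped, and the lower Eef1a1 library (191) lay level with the higher of Eef2.

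Ratios of reads within a library do not depend on its total. Eef1a1 had 1.67 and 1.77 times the reads of Eef2 in the input libraries, 1.48 and 1.51 times in the masked libraries and 1.23 and 1.501 times with TH59-DB. Eef2 had 4.12 and 4.36 times the reads of Eif4g2 in the input, 3.10 and 3.24 times in TH59-DB, and 15.3 and 3.35 times in masked TH59-DB. The 15.3 of masked TH59-DB 1 has a 95% exact interval of 10.2 to 24.0 and stands apart from the other libraries. For both ratios, the TH59-DB values lay below the input values, without overlap. The 95% exact intervals of TH59-DB 2 still overlapped those of input 1. They were 1.31 to 1.72 and 1.58 to 1.77 for Eef1a1 over Eef2, and 2.61 to 4.05 and 3.73 to 4.56 for Eef2 over Eif4g2. The interval of TH59-DB 1 for Eef1a1 over Eef2, 1.05 to 1.45, lay below that of input 1. These differences between groups were not tested.

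**Figure D4:**
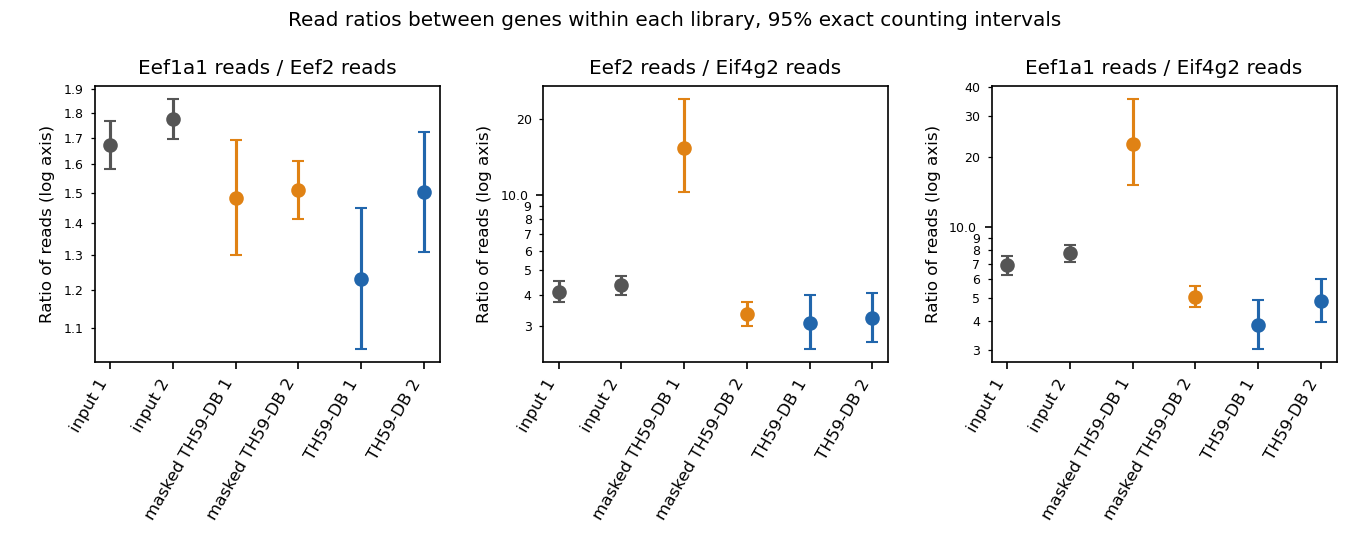
Ratio of reads between genes within each library on a log axis, with 95% exact intervals for counting error and colours for the groups, for models that cover no snoRNA. Masked TH59-DB 1 lies apart in the ratios to Eif4g2, at 15.3 for Eef2 and 22.7 for Eef1a1.

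Along Eef2, the 6-exon model nearer the 3′ end had 1.26 and 0.876 times the reads of the 3-exon model that starts at 81178144 in the input. The ratio was 1.47 and 0.603 in the masked libraries and 0.778 and 0.841 with TH59-DB. The input and masked groups overlapped, and TH59-DB lay within the range of masked TH59-DB.

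Over the 6 libraries, the models outside the 4 genes whose levels ran most like each leading model were found by Pearson correlation of log2(CPM + 0.5), among models with a mean of at least 10 CPM. For Eef1a1 they lay in Rpl4 (r = 0.996), Hnrnpl (0.994) and Maz (0.992), and for the Eef2 model at 81178144 in Eno1 (0.998), Ldha (0.992) and P4hb (0.992). For the 4-exon Eif4g2 model they lay in H2bc14 (0.999), Rapgef1 (0.997) and Kmt2d (0.995). The 197-base Eif4a1 model was less matched, with Abcb9 at 0.968, Cwc27 at 0.955 and Stc2 at 0.953. A correlation above 0.95 was found for 83 models with Eef1a1, 111 with Eef2, 135 with Eif4g2 and 3 with Eif4a1, of 2218 to 2221 compared. These values describe 6 points that share library totals and groups.

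Other genes of translation were taken from a list of 73, of which 69 were not among the 4. A model was present in 31 of the 69, and 28 were tested through their model of highest mean level. For TH59-DB against input, 0 of 28 passed in either direction in edgeR's quasi-likelihood test or in DESeq2, 6 were lower and 0 higher at an unadjusted p under 0.05, and the median log2 fold change was -1.24. The lowest was Pabpc1, the cytoplasmic poly(A)-binding protein, at -2.42 (adjusted p = 0.241). Eif5a, which helps ribosomes past slow peptide bonds, had -2.24 (adjusted p = 0.154), and Eef1b2, a subunit of the exchange factor that recharges eEF1A, had -1.95 (adjusted p = 0.219).

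Summed over its 3 models, Pabpc1 had 888 and 1254 CPM in the input libraries, 151 and 786 in the masked libraries and 195 and 202 with TH59-DB. Eef1b2 had 140 and 192 CPM in the input libraries, 71.0 and 122 in the masked libraries and 28.8 and 45.6 with TH59-DB. The input lay above TH59-DB in both, as in the spliced models of Eef1a1 and Eef2. At the other end, Eef2k, the kinase that inhibits eEF2, stood at 2.86 on the log2 scale (adjusted p = 0.699), Eif1ad 0.97 (adjusted p = 0.931) and Eif2ak2 0.33 (adjusted p = 0.962). Of the 28 genes, 25 had a value below 0, beside 49.1% of all tested models and 71.7% of the spliced ones.

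Of the 28 genes in masked TH59-DB against input, 0 passed in edgeR's quasi-likelihood test or in DESeq2, 1 was lower at an unadjusted p under 0.05, and the median was -1.02. With the second masked library left out, 1 passed as higher (Eif2ak2) and 7 as lower, of 30 tested, where 5.69% and 14% of all models did. The lowest were Etf1, the release factor that reads stop codons, at -3.35 (adjusted p = 0.581), the mitochondrial elongation factor gene Tsfm at -2.11 (adjusted p = 0.838) and Pabpc1 at -1.74 (adjusted p = 0.811). The highest were Eef2k at 2.44 (adjusted p = 0.852), Eif2ak2 at 1.52 (adjusted p = 0.838) and Eif6, which keeps the ribosomal subunits apart, at 0.64 (adjusted p = 0.905).

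Between TH59-DB and masked TH59-DB, 0 of 28 passed and 0 had an unadjusted p under 0.05 in edgeR's quasi-likelihood test, DESeq2 called 0, and the median was -0.49. With the second masked library left out, 3 passed as higher and 1 as lower (Eif2ak2), of 30 tested, where 20.6% and 3.35% of all models did. The lowest were Eif2ak2 at -1.19 (adjusted p = 0.883), Eif3g, a subunit of the initiation factor that binds the small ribosomal subunit, at -1.18 (adjusted p = 0.813), and Eif5a at -1.13 (adjusted p = 0.756). The highest were Etf1 at 2.32 (adjusted p = 0.654), Tsfm at 1.39 (adjusted p = 0.949) and Eif1ad at 0.52 (adjusted p = 0.979). All 3 had 0 CPM in masked TH59-DB 1. In masked TH59-DB 2, Etf1 had 4.16 CPM and Eif1ad 7.37. With TH59-DB, Etf1 had 13.9 and 5.02 CPM and Eif1ad 9.42 and 0.772, so the values of Eif1ad rest on few reads. Both other elongation genes, Eef1b2 and Eef1g, had values below 0 in all 3 comparisons, as had Eef1a1 and the Eef2 models. The value in TH59-DB against input follows from the other 2, so its sign adds nothing. Singly, 71.7% of all tested spliced models were below 0 in TH59-DB against input. The shares were 70.9% in masked TH59-DB against input and 55.9% between the captures. The share below 0 in all 3 was not computed.

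The erythroid marker genes gave a measure of how another set of genes of these cells ran through the captures. Their 14 tested leading models had medians of -0.49 in TH59-DB against input, -0.25 in masked TH59-DB against input and -0.20 in TH59-DB against masked TH59-DB, and 0 passed in edgeR's quasi-likelihood test or in DESeq2. At an unadjusted p under 0.05 in edgeR, 1 (Car1), 1 (Gfi1b) and 0 were lower and 0 higher. The markers did not run alike. In TH59-DB against input their values ran from -2.34 for Car1 to 1.09 for Ppox, and 9 of the 14 were below 0. Summed over its models, Car1 had 350 and 475 CPM in the input libraries, while Ppox had 2.01 and 3.15. The medians of the 12 translation factor models in these comparisons were -2.10, -1.54 and -0.68, and the last of these was 0.013 with the second masked library left out. The difference between the sets was not tested.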

How the data were processed

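The deposited files hold counts, whole numbers of reads per transcript model, and FPKM values that the authors made from the same reads and a library total. Per the submitters' processing notes, cutadapt, HISAT2, Cufflinks and featureCounts were used on mm10; versions and settings are not given in the sources used here. Files of library numbers 1 and 2 were joined on chromosome, start and end. Of 7959 models, 7695 matched on all exons, and 264 were matched on chromosome, first start and length, 2 of them among the 12 models. Library totals were recovered from the FPKM values. Gene and snoRNA spans came from a RefSeq table of GRCm38.p6.

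Counts were fitted in edgeR 4.0.16 (R 4.3.3) with TMM scaling of those totals, filterByExpr and the quasi-likelihood test over all 6 libraries, after the code was tested on simulated data. There, 36% of 16-fold and 70% of 64-fold changes between TH59-DB and masked TH59-DB were called, and 0% of unchanged models. A model that did not pass is therefore not shown to be unchanged. DESeq2 1.42.0, other scalings, no filter, a replicate block and each library left out were alternatives. Per comparison, the 3 lowest and 3 highest other translation genes were named. The members, lists and rules were chosen with earlier results of these data known.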

Additional observations from a re-analysis of the deposited data

How the results depend on the processing

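With 2 libraries per group, counts of calls moved with the processing. Over all tested models in TH59-DB against masked TH59-DB, 76 passed in edgeR and 267 in DESeq2. There were 167 with DESeq2 size factors, 155 without TMM, 155 with sums of model reads as library sizes (chosen after seeing the data), 206 without the filter and 129 with only these groups in the fit. In TH59-DB against input the counts were 195 in edgeR, 397 in DESeq2, 312 without the filter and 497 with only these groups. In masked TH59-DB against input they were 14 in edgeR, 121 in DESeq2, 57 with DESeq2 size factors, 108 without TMM, 50 with the sums and 113 without the filter. Fits with 1 library left out gave 32 to 1720, 102 to 756 and 0 to 1413. Library numbers do not pair the samples by their labels, and the correlations of same-numbered deviations were 0.162, 0.105 and 0.0579. With the replicate block the counts were 191, 363 and 106.

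Of the 12 models, 0 passed in each comparison. In TH59-DB against input, 5 passed as lower with the replicate block (Eef1a1, adjusted p = 0.0260, and the 4 of Eef2, 0.00455 to 0.0323), and of the other translation genes 3 (Eef1b2, Eif5a and Pabpc1). Of the 14 erythroid markers, 1 (Car1) passed as lower with the block. Of all 5385 tested models, 118 passed as lower in that fit and 245 as higher. DESeq2 called 3 (Eef1a1 and the Eef2 models at 81179356 and 81180062), the fit without TMM 2 (those of Eef2), and the fit of only these groups 3 of the 11 it tested (Eef2 at 81176643 and 81179356 and Eif4g2 at 111075057). Over all tested models, DESeq2 called 28 of 5385 lower, the fit without TMM 23 of 5385 and the fit of only these groups 61 of 4864. Called higher were 369, 207 and 436. In masked TH59-DB against input, DESeq2 called 1, the Eif4a1 model at 69671819, as higher. Leaving out 1 library gave 0 to 4 calls in TH59-DB against masked TH59-DB, 0 to 2 in TH59-DB against input and 0 to 4 in masked TH59-DB against input. The 4 came without masked TH59-DB 2, which leaves the other masked library alone, assumed to vary like the other groups.

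The log2 fold change turned in these cases. In TH59-DB against masked TH59-DB, Eif4a1 at 69668852 came to -0.46 and Eif4g2 at 111077234 to -0.47 without TMM, and the latter to -0.28 with reads summed per gene. Over the fits with 1 library left out, the ranges that crossed 0 were -1.12 to 1.503 for Eif4a1 at 69668852, -1.66 to 0.85 for Eif4a1 at 69669639, -3.50 to 0.21 for Eif4a1 at 69671819, -1.39 to 0.037 for Eef2 at 81178144, -1.89 to 6.87 for Eif4g2 at 111075057 and -0.87 to 4.27 for Eif4g2 at 111077234. For Eif4a1 at 69669639 the range was -1.61 to 0.31 in TH59-DB against input and -1.29 to 0.93 in masked TH59-DB against input, where the replicate block gave -0.30. The causes were not tested. Of 186, 186 and 187 pairs of model and alternative, 171, 168 and 180 kept direction and side of the threshold. The median of all tested models shifted from 0.03 to 0.40 with DESeq2 size factors in TH59-DB against input, and the 12 models stayed 2.14 below it.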

Other observations

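Of the 9 regulators of translation in the list, 3 had a model, and these were low in all libraries. Eif4ebp1, the inhibitor of the cap-binding protein eIF4E, had 15.4 and 29.1 CPM in the input libraries, 0 and 23.4 in the masked libraries and 6.65 and 5.41 with TH59-DB. Eif2ak2, the kinase PKR that double-stranded RNA switches on, had 8.04 and 16.1 CPM in the input libraries, 32.0 and 13.5 in the masked libraries and 22.7 and 13.1 with TH59-DB, so its groups overlapped. Eef2k had 0.335 and 0.350 CPM in the input, 1 read in each library, with 0 and 5.44 CPM in the masked libraries and 15.5 and 0.772 with TH59-DB. Each capture of Eef2k was thus high in 1 of its libraries only.

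The mitochondrial elongation factor Gfm1 had 6.03 and 7.36 CPM in the input libraries, 2.54 and 3.84 in the masked libraries and 5.54 and 2.32 with TH59-DB. Tsfm, another mitochondrial elongation factor gene, had 5.02 and 6.30 CPM in the input libraries, 0 and 3.20 in the masked libraries and 16.1 and 1.54 with TH59-DB. For Gfm1 both captures lay below the input, and for Tsfm the TH59-DB libraries lay on either side of it. None of these 5 genes passed edgeR's quasi-likelihood test in any comparison, with adjusted p-values from 0.684 to 0.980.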
